A study of Danio rerio with 6 samples.

Results

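Whole eyes were set against a mixture of 8 other organs in adult zebrafish. The comparison asks which transcripts the eye holds at higher or lower levels than that mixture. The comparison uses 4 of the 6 poly(A) RNA libraries of the series: eye at day, eye at night, mixed organs at day and mixed organs at night. The 4 libraries were taken from the tissue and time labels, not from measured values. The gene lists used below were written with earlier results of these data known, so counts over them are descriptions. The pineal gland libraries of the same series entered only the estimate of the spread and the filter on low values. Every group, controls included, came from fish of 0.5 to 1.5 years that carried Tg(aanat2:EGFP), a reporter that lights up the pineal gland through aanat2 regulatory sequence, and that lived under 12 h of light and 12 h of dark. Tissue was taken at ZT6, 6 h after lights on, and at ZT18, the middle of the dark phase. Each eye library is 1 pool of 6 whole eyes, so retina, pigment epithelium, lens, cornea, sclera and vessels are read together. The mixed libraries are equal parts of total RNA from heart, liver, intestines, gill, kidney, muscle, brain and ovary, with 4 to 8 of each organ in a pool. Skin is not among these organs, so pigment cell and keratin genes are not set against skin here. There is 1 library per tissue and time, so the day and night libraries of a tissue serve as its 2 replicates. The p-values measure only the spread left over after tissue and time terms in all 6 pools, pineal included. A day-night change particular to 1 tissue therefore counts as spread, and repeated pools of 1 tissue at 1 time are lacking.

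The vertebrate eye is built from parts with very different protein repertoires. Rods and cones turn light into an electrical signal through an opsin, a G protein, a phosphodiesterase and a cGMP-gated channel, and the pigment epithelium and Müller glia renew the retinal chromophore. The lens is packed with crystallins, which keep it clear and refractive, while the cornea joins a keratin-rich epithelium to a stroma of collagen and small proteoglycans. Brain is one of the 8 organs of the mixture, so a gene that retinal and brain neurons both use is present on both sides of the comparison.

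The eye libraries rest on 15016838 reads at day and 13418642 at night, and the mixed libraries on 15708307 and 15950819. Levels are FPKM, read counts scaled to gene length and library depth. Differences are eye minus mixed after taking log2(FPKM + 1), and the added 1 makes changes of weakly expressed genes look smaller than they are. A gene was called when limma's adjusted p was under 0.05 and the eye differed from the mixture by at least 2-fold in the same direction in both the day pair and the night pair. Of 21325 genes tested, 3544 (16.6%) were called higher and 5332 (25.0%) lower in the eye, and the median difference over all of them was -0.19. Quantile normalization moved that median to 0.01 and gave 4425 higher and 4511 lower calls, so the split between directions depends on the scaling. In these bulk pools, a larger share of cells of a type and more RNA per cell cannot be told apart.

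The labels matched the defining markers of the tissues. GNAT1, the alpha subunit of rod transducin, read 1814 and 1421 FPKM in the eye libraries and 0.712 and 0.892 in the mixed libraries, while MYL7, a cardiac myosin light chain, read 0.149 and 0.0557 in the eye and 586 and 618 in the mixture. Genes of the eye compartments that were gathered in 18 lists came to 498, of which 456 passed the filter on low values, and 320 of these were called higher, 27 lower and 109 neither. The shares called were 70.2% higher and 5.92% lower, against 16.6% and 25.0% of all genes tested. The day and night eye pools differed over several gene lists. Genes typical of brain regions, 32 in all, summed to 64.4 FPKM in the day eye and 975 in the night eye, against 485 and 394 in the mixture. Most of the night eye sum rested on a single gene at 574 FPKM, while no gene of the list exceeded 12.4 FPKM in the day eye. Of the 32, 30 read higher in the night eye than in the day eye. Over all 21325 genes tested, 8988 read lower in the night eye than in the day eye, as did 22 of 28 tested rod genes. Of the 32 brain region genes, 6 were at 0 in the day eye and none in the night eye. Myelin genes summed to 277 FPKM in the day eye and 772 in the night eye, against 555 and 496 in the mixture. Crystallins took 1.52% of reads in the day eye and 0.813% in the night eye, so the pools also differ in lens RNA. What part these differences have in the results was not tested. Counts without the night eye library are given for the ganglion, Müller, sclera and vitreous, neuronal and brain region lists, and the median without it for the myelin list.

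**Figure D1:**
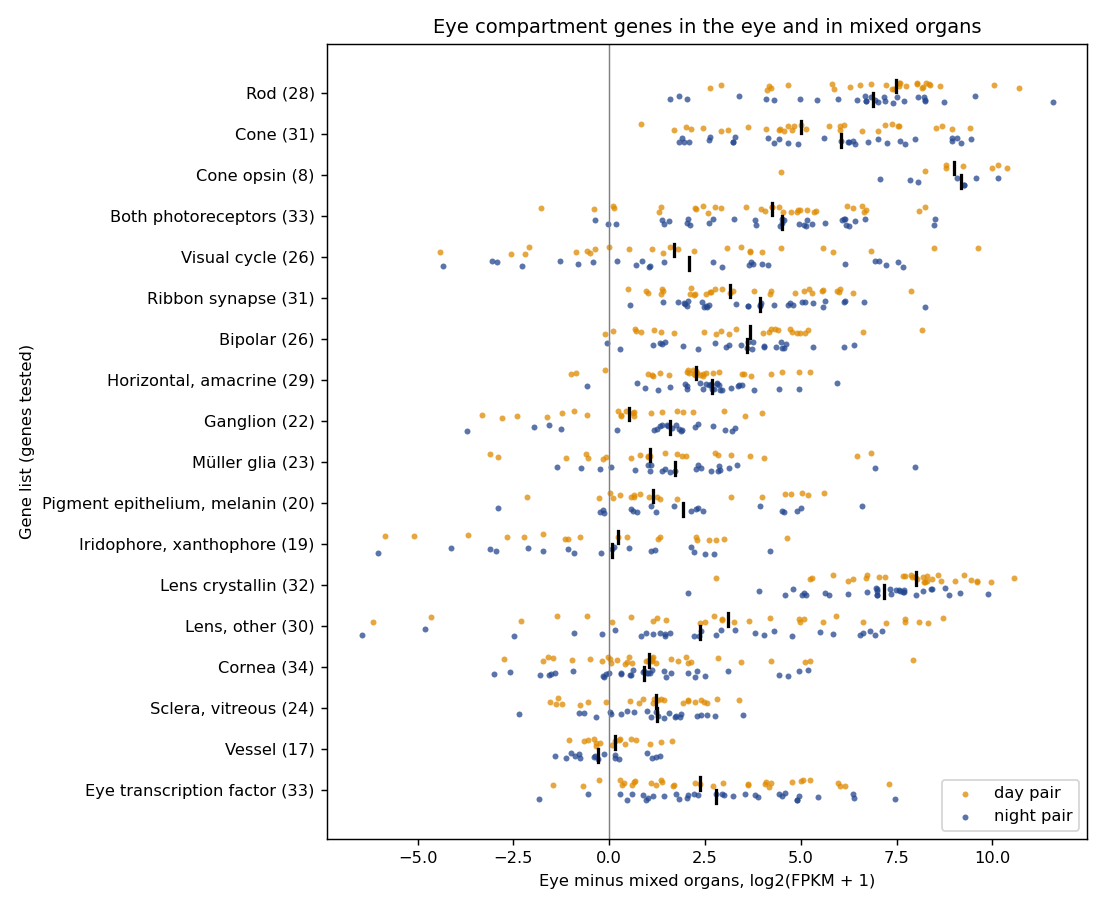
Eye minus mixed organs on the log2(FPKM + 1) scale (horizontal axis) for every tested gene of 18 eye lists (rows, number tested in brackets), with day pairs in orange, night pairs in blue and black ticks at the list medians. Rod, cone opsin and crystallin genes lie farthest to the right, while vessel genes lie around 0 with a median difference of -0.07.

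Photoreceptor genes were called higher almost without exception. All 28 tested rod genes were called higher in the eye with a median difference of 7.16, as were 30 of 31 cone genes with a median of 5.35 and all 8 cone opsins with a median of 8.95, against 16.6% of all genes tested. The filter left out 1 of 29 matched rod genes and no cone or opsin gene. A gene below 1 FPKM in both mixed libraries could pass it only through the eye or pineal libraries. Such a gene could not be called lower, so these shares describe the lists and do not test them.

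Rod transduction genes were high at several steps of the cascade. The 53590 and 37494 reads of GNAT1 in the eye stood against 22 and 28 in the mixture, a difference of 9.80 (SE 0.23, limma adjusted p = 1.65e-05). Its ratio of FPKM was 2548 in the day pair (95% exact interval 1683 to 4066) and 1592 in the night pair (1101 to 2396), and these intervals cover counting error only. PDE6B (ENSDARG00000000380), a catalytic subunit of the rod phosphodiesterase, differed by 8.34, PDE6G, its inhibitory subunit, by 8.31, and both identifiers of the channel subunit CNGA1 by 7.18 and 7.11. Recoverin (RCVRN, ENSDARG00000019902), a calcium sensor of the rod, differed by 8.54, and the rod arrestins saga and sagb by 7.54 and 7.14. The transducin beta genes gnb1a and gnb1b differed less, by 3.80 and 2.47, and they were also the rod list's most abundant genes in the mixture, at 37.5 to 52.3 FPKM.

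Cone counterparts of these steps were higher as well. GNAT2, cone transducin alpha, read 987 and 827 FPKM in the eye and 0.443 and 0.194 in the mixture, and its day and night differences of 9.42 and 9.44 were nearly equal (mean 9.43, SE 0.18, limma adjusted p = 1.65e-05). The cone arrestin ARR3 (ENSDARG00000056511) differed by 8.81, the transducin beta gene gnb3b by 9.002 and the phosphodiesterase genes PDE6H and PDE6C by 8.19 and 7.97. Transcription factors of cone subtypes in zebrafish were also called, with six7 at 5.02, foxq2 at 2.42 and THRB, a thyroid hormone receptor, at 1.76. The exception was guca1g, a guanylate cyclase activator, which read 1.65 and 13.8 FPKM in the eye and 0.502 and 0.565 in the mixture and missed the fold in the day pair (adjusted p = 0.0619).

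Among the cone opsins, the short-wavelength opsin OPN1SW read 1246 and 1295 FPKM in the eye and rested on 3 and 4 reads in the mixture, a difference of 10.14 (SE 0.26, limma adjusted p = 1.83e-05). The red opsin opn1lw1 followed at 1726 and 902 FPKM in the eye against 0.2998 and 0.185. The green opsins opn1mw1 to opn1mw4 and the red opsins opn1lw1 and opn1lw2 are near copies of each other, so reads may be split between them. Within the red pair, opn1lw1 read higher in the day eye, while opn1lw2 read 334 FPKM in the day eye and 677 in the night eye. The 4 green opsins did not move together either, since opn1mw1 read 25.1 FPKM in the day eye and 288 in the night eye, while opn1mw3 read 504 and 132. With 1 eye library per time these shifts have no replicate, but every opsin in either eye pool stayed far above the mixture, where none exceeded 0.737 FPKM.

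Genes that rods and cones share were called higher in 29 of 33 cases, with a median difference of 4.55. This share was 87.9%, against 16.6% of all genes tested. The outer segment rim protein peripherin (PRPH2, both identifiers) led with 8.36 and 8.30, followed by ABCA4 (ENSDARG00000062661), a retinoid flippase, at 6.43, and AIPL1, a chaperone of phosphodiesterase, at 6.40. The matrix proteoglycans around photoreceptors, impg1a, impg2a and impg2b (ENSDARG00000100288), differed by 6.21, 5.82 and 5.67. Of the 4 genes that were not called, RP2 stood at 29.5 and 35.8 FPKM in the eye against 26.7 and 36.7 in the mixture, and UNC119B and pcdh15b were level as well. The last, eys, read 0.190 and 7.03 FPKM in the eye and 3.09 and 1.97 in the mixture, so its day and night pairs had opposite signs.

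**Figure D2:**
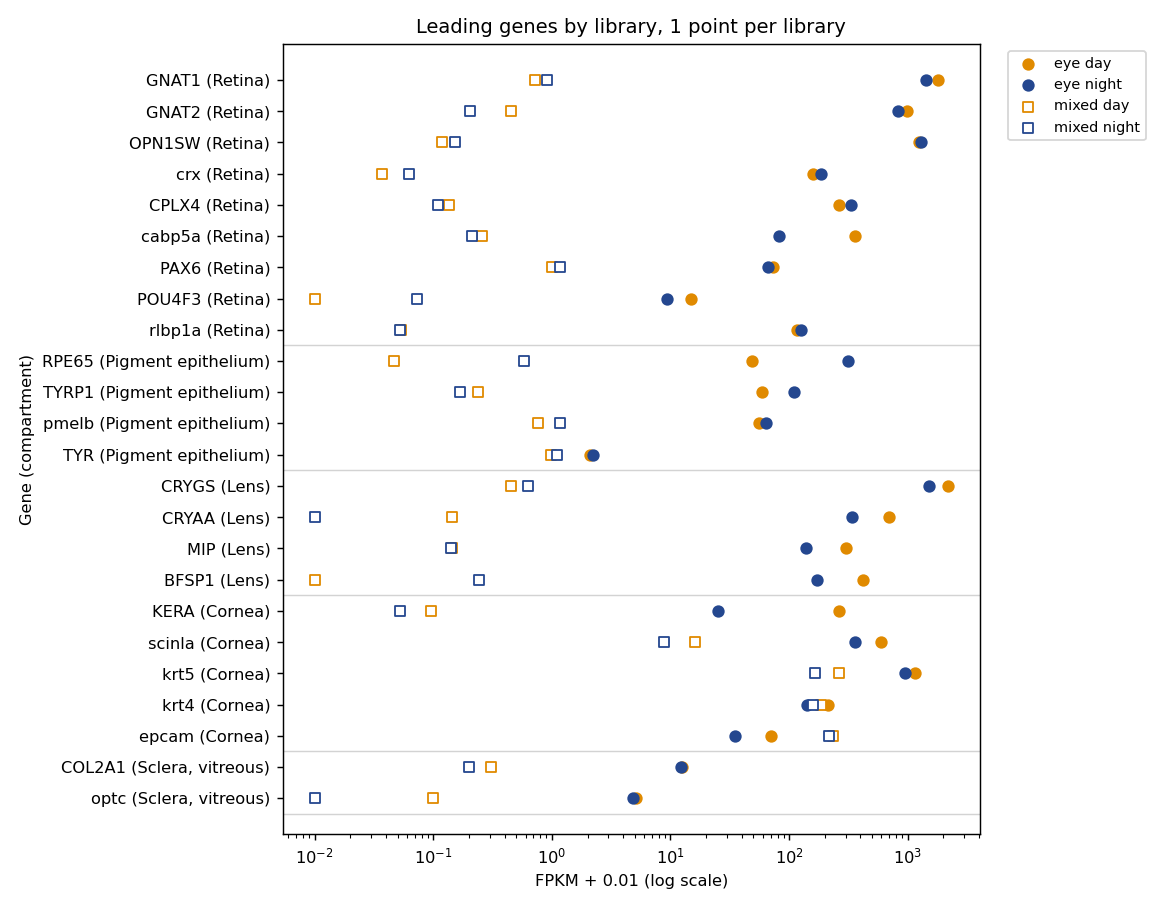
FPKM plus 0.01 on a log scale (horizontal axis) of genes from 5 eye compartments (rows), with filled circles for eye libraries, open squares for mixed libraries, orange for day and blue for night, 1 point per library. GNAT1 sits at 1814 and 1421 FPKM in the eye and at 0.712 and 0.892 in the mixture, whereas krt4 and epcam of the cornea list are level in both or lower in the eye.

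The visual cycle, which turns spent all-trans retinal back into 11-cis retinal, gave a divided list. Of 26 genes, 15 (57.7%, against 16.6% of all genes tested) were called higher and 4 (15.4%, against 25.0%) lower. The median difference was 1.89. The interphotoreceptor retinoid carrier rbp3 read 938 FPKM in the day eye, 170 in the night eye and 0.189 and 0.293 in the mixture, a difference of 8.33 (SE 0.83, limma adjusted p = 0.00064). RPE65 (ENSDARG00000007480), the isomerase of the pigment epithelium, had the opposite balance between eye pools, at 48.8 and 316 FPKM against 0.0365 and 0.575, a difference of 6.62 (SE 0.55, limma adjusted p = 0.000369). Both cellular retinal-binding proteins were called, rlbp1a at 6.88 and rlbp1b at 4.99, as were 3 RDH8 identifiers, which encode photoreceptor retinol dehydrogenases, at 3.60 to 5.86. The other RPE65 identifiers, ENSDARG00000094752 and ENSDARG00000054420, lay between 0.802 and 2.74 FPKM in all 4 libraries and were not called.

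Of the visual cycle genes, 4 were called lower in the eye. TTR, a plasma carrier, BCO1, a carotene cleavage enzyme, and DHRS9 were lower in the eye by 2.43, 2.63 and 2.52 on the log2 scale. The RDH10 identifiers split, since ENSDARG00000058730 read 97.2 and 71.1 FPKM in the eye against 10.6 and 8.34, while ENSDARG00000012369 read 5.82 and 6.47 against 144 and 149. These were differences of 3.01 and -4.37, each beyond the spread by limma (adjusted p = 9.69e-05 and 3.27e-05), so the 2 copies of this retinol dehydrogenase were called in opposite directions.

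Synaptic genes of the retina were mostly higher too. Of 31 genes of the ribbon synapse, where photoreceptors and bipolar cells release glutamate continuously, 28 were called higher with a median difference of 3.42. This share was 90.3%, against 16.6% of all genes tested. The complexin CPLX4 (ENSDARG00000059978) read 266 and 330 FPKM in the eye and 0.127 and 0.0998 in the mixture, a difference of 8.06 (SE 0.17, limma adjusted p = 1.65e-05). The calcium-binding regulator cabp4 and the channel subunits cacna1fa and CACNA2D4 differed by 6.51, 6.07 and 5.58. Of the active zone proteins that conventional synapses also use, PCLO differed by 3.80, above the list median of 3.42. ERC2 and BSN lay below that median, at 1.69 and 1.52, and BSN missed the fold in the day pair.

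Among inner retinal neurons, the list medians descended from bipolar to horizontal with amacrine to ganglion cells, an order that was not tested. Of 26 bipolar genes 21 (80.8%, against 16.6% of all genes tested) were called higher with a median of 3.89. They were led by the calcium-binding genes cabp5a and cabp2a at 7.15 and 5.97, the transcription factor VSX1 at 5.58, and the ON bipolar channel TRPM1 (ENSDARG00000011259) at 4.76. The receptor that ON bipolar cells use to sense glutamate, GRM6, was called under both identifiers at 2.91 and 2.62. Of 29 horizontal and amacrine genes 26 (89.7%, against 16.6% of all genes tested) were called higher with a median of 2.47. PAX6 (ENSDARG00000103379), which amacrine and ganglion cells keep in the adult, read 73.5 and 66.0 FPKM in the eye against 0.985 and 1.17. GAD1 (ENSDARG00000027419), which makes GABA, read 282 and 229 FPKM against 24.7 and 21.5, a difference of 3.41, and CHAT, of cholinergic amacrine cells, differed by 3.34.

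Of 22 tested ganglion cell genes, 8 (36.4%, against 16.6% of all genes tested) were called higher and 4 (18.2%, against 25.0%) lower, with a median of 1.02. POU4F3, a transcription factor of these cells, read 14.8 and 9.28 FPKM in the eye and rested on 0 and 1 read in the mixture, a difference of 3.63 (SE 0.25, limma adjusted p = 0.000191). ISL2 (ENSDARG00000053499) and the synuclein SNCG differed by 3.38 and 3.001. The RNA-binding genes RBPMS2 (ENSDARG00000079578) and rbpms, which mark ganglion cells in the retina of mammals, were lower by 1.40 and 2.19 on the log2 scale, as were EOMES (ENSDARG00000006640) by 2.04 and thy1 by 3.52. The EOMES call was lost without either mixed library. Axonal genes differed between the eye pools: the neurofilament gene nefma read 4.99 FPKM in the day eye and 30.3 in the night eye, against 10.4 and 7.35 in the mixture. Without the day eye library 17 ganglion genes were called higher, and without the night eye library 8, so this count depends on which eye pool is used, and the brain region genes named above differ between the same pools.

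Genes of Müller glia, the radial glia of the retina, were called higher in 13 of 23 cases and lower in 1, with a median of 1.59. These shares were 56.5% and 4.35%, against 16.6% and 25.0% of all genes tested. The lower call was lost under quantile normalization, with median-ratio size factors, without the day eye library and without either mixed library. SLC1A2 (ENSDARG00000052138), a glutamate transporter, had the largest difference of the list, at 7.23 (SE 0.54, limma adjusted p = 0.000265). It read 97.3 and 263 FPKM in the eye and 0.115 and 0.0377 in the mixture. Whole eyes do not show which retinal cells hold this transcript. GFAP differed by 2.86, AQP1 (ENSDARG00000023713) by 2.94 and the glutamine synthetase GLUL (ENSDARG00000099776) by 2.21, while the other GLUL identifier, ENSDARG00000100003, read 108 and 49.0 FPKM in the eye against 120 and 82.6 and was not called. Glial genes that brain astroglia also use had pairs of opposite sign, SLC1A3 (ENSDARG00000043148) at 0.178 and 18.0 FPKM in the eye pools and S100B at 5.47 and 115. Without the night eye library 14 of the 23 were called higher and 3 lower.

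Melanosome genes were mostly higher in the eye, but not uniformly. Of 20 genes of the pigment epithelium and melanosome, 11 were called higher and 1 lower, with a median of 1.36. These shares were 55.0% and 5.0%, against 16.6% and 25.0% of all genes tested. TYRP1 (ENSDARG00000056151), a melanosomal enzyme, read 58.6 and 111 FPKM in the eye against 0.226 and 0.159, a difference of 6.10 (SE 0.31, limma adjusted p = 8.78e-05). The melanosome fibre genes pmelb and pmela differed by 4.96 and 4.80, DCT, a dopachrome tautomerase, by 4.62 and GPNMB by 3.97. BEST1, a channel of the pigment epithelium, was called at 2.73 with 9.21 and 4.37 FPKM in the eye. TYR, the rate-limiting enzyme of melanin synthesis, stood at 2.09 and 2.22 FPKM in the eye against 0.981 and 1.095, a difference of 0.63 that was not called (adjusted p = 0.0524), and MITF, a master regulator of pigment cells, read 0.613 to 1.50 FPKM in the eye under its identifiers and was not called. The tetraspanin tspan36 was lower, at 16.3 and 10.4 FPKM against 75.1 and 84.2.

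Genes of the reflective iridophores and yellow xanthophores went both ways, with 7 of 19 called higher and 7 lower. Each share was 36.8%, against 16.6% higher and 25.0% lower over all genes tested. The iridophore markers apoda.1, pnp4a and ltk, a receptor kinase that iridophores need in zebrafish, differed by 4.42, 2.76 and 2.55. The purine synthesis genes ATIC, GART and PAICS, which iridophores use for guanine but every growing tissue uses too, were lower by 2.90, 1.73 and 1.12 on the log2 scale. The GART call was lost without the night mixture, and that of PAICS under every alternative scaling tried. The paralog pnp4b had 0 reads in both eye libraries and 33.0 and 16.4 FPKM in the mixture, so its call was opposite to that of pnp4a. The pteridine gene gch2 read 16.2 FPKM in the day eye and 1.12 in the night eye and was not called.

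Lens crystallins were also far above the mixture. All 32 crystallins that passed the filter were called higher, with a median difference of 7.62 and a range of 2.42 to 10.23. That count is no support for the whole family, since 21 of the 53 crystallin genes did not pass, 18 of them crygm2d genes that never exceeded 1.14 FPKM in an eye library. Those copies are nearly identical, so the authors' counting may have dropped or split their reads, and their levels are uncertain. CRYGS (ENSDARG00000042992), a gamma crystallin, was the most abundant, at 2196 and 1526 FPKM in the eye and 0.445 and 0.614 in the mixture, a difference of 10.23 (SE 0.25, limma adjusted p = 1.71e-05). The beta crystallin CRYBB3 followed at 9.42 and the alpha crystallin CRYAA at 8.84. The alpha B crystallin chaperones, which other tissues of vertebrates also hold, differed by 8.18 (CRYAB, ENSDARG00000042621) and 6.40 (CRYAB, ENSDARG00000101380), and the second of these still read 1.40 and 1.71 FPKM in the mixture. Of the crystallin genes with reads in an eye library, 17 had none in either mixed library. This count runs over all 53 genes, tested or not, and includes crygm2d copies near the floor. Of the 18 crygm2d genes, 12 read above 0 in an eye library and 4 in a mixed library.

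Lens genes outside the crystallins were called higher in 21 of 30 cases and lower in 3, with a median of 2.84. The beaded filament genes BFSP1 and BFSP2, which form the cytoskeleton of lens fibres, differed by 7.93 and 7.27. BFSP1 read 421 and 172 FPKM in the eye and had no read in the day mixture, which makes the day ratio at least 3573-fold when 3 reads are taken as the floor. The water channel MIP (ENSDARG00000037285) read 304 and 138 FPKM against 0.134 and 0.132, a difference of 7.50 (SE 0.43, limma adjusted p = 0.000117). The transcription factors pitx3 and HSF4 were called at lower levels, between 1.49 and 12.8 FPKM in the eye, and HSF4 lost its call without either mixed library. TDRD7, whose loss causes cataract in human and mouse, was split between copies: the identifier ENSDARG00000077523 differed by 2.56, while tdrd7a read 0.0849 and 0.133 FPKM in the eye against 26.4 and 30.5. The third lower gene was TMOD1, a tropomodulin. Like tdrd7a, caprin2, an RNA-binding gene with a role in lens development in mouse, was lower in the eye, at 1.06 and 0.965 FPKM against 146 and 171.

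Lens genes read lower in the night eye pool than in the day pool. All 32 tested crystallins were lower in the night eye, at 0.302 to 0.695 times the day level with a median of 0.493. So were 26 of the 30 other lens genes, against 8988 of all 21325 genes tested. Crystallin pairs were therefore smaller at night, with medians of 8.00 for the day pair and 7.16 for the night pair. There is 1 eye pool per time, so a difference in lens share between pools and a difference between times cannot be told apart.

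**Figure D3:**
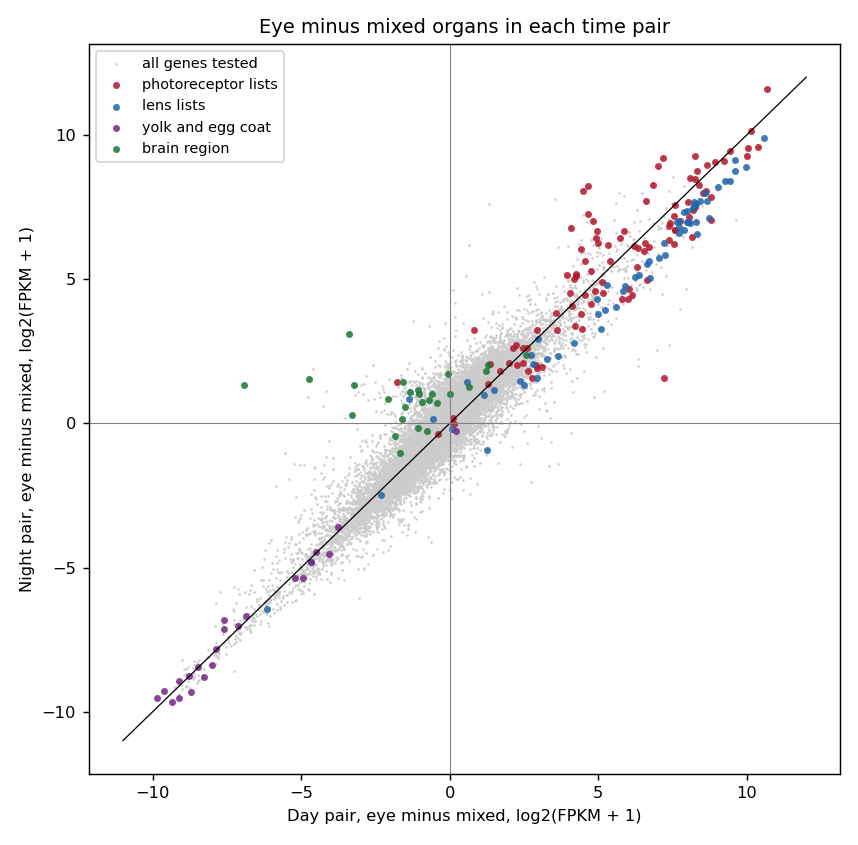
Eye minus mixed organs on the log2(FPKM + 1) scale in the day pair (horizontal axis) and in the night pair (vertical axis) for all 21325 tested genes in grey, with photoreceptor, lens, yolk and egg coat, and brain region genes in colour and the line of equal pairs in black. Lens genes lie just below the line, yolk and egg coat genes on it at the lower left, and brain region genes above it, with epd at -6.93 by day and 1.31 by night.

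Corneal genes were mixed, with 14 of 34 called higher and 4 lower and a median difference of 1.01. These shares were 41.2% and 11.8%, against 16.6% and 25.0% of all genes tested. Keratocan (KERA), a proteoglycan of the corneal stroma, read 266 FPKM in the day eye and 25.3 in the night eye, and 0.0863 and 0.0425 in the mixture, a difference of 6.30 (SE 0.76, limma adjusted p = 0.0012). The scinderin-like gene scinla, a gelsolin relative that serves as a corneal crystallin in zebrafish, read 597 and 359 FPKM against 16.2 and 8.86, a difference of 5.16 (SE 0.15, limma adjusted p = 2.23e-05). The surface keratin krt5 was among the 10 most abundant genes of the eye at 1153 and 948 FPKM, but it also read 264 and 166 in the mixture and differed by 2.32. The keratins krt91 and krt97 behaved alike, at 1.93 and 2.56.

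Other epithelial genes were level or lower in the eye. The keratins krt4, krt8, krt17 and krt18a.1 were not called, and krt4 read 212 and 142 FPKM in the eye against 184 and 160. The adhesion gene epcam was lower in the eye, at 70.4 and 35.2 FPKM against 235 and 216, as were SCIN, a gelsolin relative, and aldh3a2a and aldh3b1, relatives of the aldehyde dehydrogenase that fills the mammalian cornea. Of stromal genes, decorin (DCN), FMOD (ENSDARG00000044895) and COL8A2 were called at 1.75, 3.26 and 1.74, while lumican (LUM), at 44.2 and 20.7 FPKM against 28.9 and 13.0, was not. In the night eye 30 of the 34 were below their day level, against 8988 of all 21325 genes tested. Even so, the summed share of reads stayed above the mixture, at 1.07% and 0.741% against 0.366% and 0.291%.

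Of 24 genes of the sclera and vitreous, 13 were called higher and 1 lower, with a median of 1.23. These shares were 54.2% and 4.17%, against 16.6% and 25.0% of all genes tested. The type II collagen COL2A1 (ENSDARG00000069093), which fish sclera and vitreous both hold, read 12.6 and 12.3 FPKM in the eye against 0.299 and 0.189, a difference of 3.44 (SE 0.20, limma adjusted p = 0.000113). The type IX collagens COL9A2, col9a3 and col9a1b and opticin (optc), a vitreous proteoglycan, were called between 2.11 and 2.79. Aggrecan acana was lower in the eye, at 0.451 and 0.206 FPKM against 2.77 and 5.17. With the filter raised to 5 FPKM, 7 of 11 tested genes of this list were called higher. The count of lower genes was 4 without the night eye library, 2 without the night mixture, and 4 with a pseudocount of 0.1 or with voom.

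Vessel genes were level between the tissues. Of 17 endothelial genes, 2 were called higher and 1 lower (median -0.07), shares below the 16.6% and 25.0% of all genes tested. The higher genes were ESAM, at 22.0 and 18.7 FPKM in the eye against 8.04 and 8.13, and sox18, and the lower gene was vwf, which encodes the von Willebrand factor. The vessel receptor kdrl read 23.1 and 21.3 FPKM in the eye against 17.1 and 19.2 and was not called. Neither higher call held without the day mixture library, and 1 was left without the night mixture library. The vwf call was lost without either of them and under every alternative scaling tried.

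Transcription factors that build or maintain the eye were called higher in 23 of 33 cases and lower in 1, with a median of 2.51. These shares were 69.7% and 3.03%, against 16.6% and 25.0% of all genes tested. Both crx (ENSDARG00000011989) and CRX (ENSDARG00000043483), the photoreceptor homeobox genes, were called, and crx read 160 and 185 FPKM in the eye with 1 and 2 reads in the mixture, a difference of 7.38 (SE 0.16, limma adjusted p = 1.65e-05). The retinal homeobox genes rx1, rx2 and rx3 differed by 5.30, 4.97 and 3.42, SIX3 under its identifiers by 4.96 and 3.76, and SIX6 by 3.94 and 1.65, the last of which lost its call without either mixed library. NEUROD1 was the most abundant of the list at 290 and 181 FPKM, but 16.1 and 14.6 in the mixture held its difference to 3.81. The dorsal factor TBX5 was lower, at 0.459 and 0.367 FPKM against 3.05 and 3.85. The anterior segment genes FOXC1 and foxc1b were not called, with 2.08 to 4.83 FPKM over the 4 libraries.

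Melatonin synthesis genes, which photoreceptors of fish use as the pineal gland does, were called higher in 5 of 9 cases and lower in 1. These shares were 55.6% and 11.1%, against 16.6% and 25.0% of all genes tested. The acetyltransferase aanat2 read 160 and 254 FPKM in the eye against 1.06 and 0.520 in the mixture, a difference of 6.84 (SE 0.54, limma adjusted p = 0.000302). Its relative AANAT differed by 5.50 and the methyltransferase ASMT by 4.50, while ASMTL was lower, at 5.10 and 7.70 FPKM against 21.8 and 22.4.

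Genes outside the lists were named by rank alone. Among the 100 largest rises, 36 were photoreceptor genes, 28 lens genes, 7 genes of another eye list and 29 in none of them. The leading genes outside the lists were CLUL1, a clusterin relative, at 546 and 293 FPKM in the eye against 0.0916 and 0, and gatd3l, at 781 and 286 against 0.535 and 0.0585. They differed by 8.58 and 8.54. Both phosducin (PDC) identifiers, whose product binds transducin beta-gamma, and retinoschisin (rs1a), an adhesion protein of the retina, differed by 7.74, 7.68 and 7.55. GUK1 (ENSDARG00000005776), a guanylate kinase, differed by 7.72, the potassium channel kcnb2a by 7.61, the synaptotagmin syt5a by 8.03 and the prion gene prnpa by 7.54. SLC25A3 (ENSDARG00000027424), a mitochondrial phosphate carrier, and MFN1 (ENSDARG00000011884), a mitofusin, belong to families used in every cell, yet these copies read 170 and 154 FPKM and 174 and 149 FPKM in the eye and stayed under 0.4 FPKM in the mixture. At the other extreme, actb2, a beta actin, was among the 10 most abundant genes of both tissues, at 1328 and 1191 FPKM in the eye against 1326 and 1290, and was not called.

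Ion pump and energy lists are given mainly for their single genes. Their shares of lower calls were near that of all genes tested, while their shares of higher calls were above it. Of 15 sodium pump genes 6 were called higher, a larger share than the 16.6% of all genes, and 5 (33.3%, against 25.0%) lower. The neuronal subunits atp1a3b and atp1a3a differed by 2.92 and 1.87, and the beta subunit ATP1B2 (ENSDARG00000034424) read 205 and 141 FPKM in the eye against 1.095 and 1.05, a difference of 6.36. The tandem copies atp1a1a.2 to atp1a1a.5, some of which mark gill ionocytes in fish, were lower by 4.26 to 6.71 on the log2 scale, although reads may be split between them. Of 39 genes of glycolysis and phosphocreatine, 12 (30.8%, against 16.6% of all genes) were called higher and 11 (28.2%, against 25.0%) lower. ENO1 (ENSDARG00000013750), an enolase, read 218 and 248 FPKM in the eye against 8.71 and 7.42. GAPDHS read 746 and 715 FPKM against 183 and 120, whereas GAPDH read 78.2 and 88.4 against 913 and 911, so the 2 glyceraldehyde phosphate dehydrogenase genes differed by 2.29 and -3.44.

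Genes of the other organs were mostly lower in the eye. Of 22 tested yolk, egg coat and germ line genes 21 were called lower, against 25.0% of all genes, with a median difference of -7.61. They took 0.0137% and 0.0125% of eye reads and 4.19% and 4.38% of mixed reads. The yolk precursor vtg1, made in the liver for the egg, read 1.73 and 1.70 FPKM in the eye and 2505 and 2010 in the mixture, a difference of -9.69 (SE 0.23, limma adjusted p = 1.65e-05). Outside the lists, the largest falls included the egg coat genes zp3e, zpcx and zp2l1 at -8.76, -8.61 and -8.39, the retinol saturase relative retsatl at -8.51 and the apolipoprotein gene apoa1a at -7.93. Heart genes were called lower in 19 of 20 cases, liver genes in 24 of 25 and intestine genes in 19 of 21. Gill genes were called lower in 14 of 17 cases and kidney genes in 11 of 15. These organ shares ran from 73.3% (kidney) to 96.0% (liver), against 25.0% of all genes.

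Muscle, blood and neuronal lists were more mixed. Of 34 skeletal muscle genes 21 (61.8%, against 25.0% of all genes) were called lower and 4 (11.8%, against 16.6%) higher. The fast myosin myhz1.1 read 18.1 and 19.0 FPKM in the eye against 0.0954 and 0.0626, while the parvalbumins pvalb1 and pvalb2 were lower by 6.04 and 6.01 on the log2 scale. The troponin TNNI1 (ENSDARG00000000474) was the 1 heart-list gene called higher, at 11.7 and 8.60 FPKM against 0.466 and 0.115. Immune genes were called lower in 20 of 24 cases (83.3%, against 25.0% of all genes) and higher in none. Among them, lyz, a lysozyme, read 5.41 and 2.84 FPKM in the eye against 136 and 140. Neuronal genes that brain and retina both express were called higher in 15 of 23 cases (65.2%, against 16.6% of all genes). They were led by the glutamate receptor subunit GRIN1 (ENSDARG00000025728) at 368 and 336 FPKM against 12.0 and 13.3. Without the night eye library 15 of these neuronal genes were called higher and 3 lower, against 1 lower with it. Of 26 tested brain region genes 3 were called higher and 1 lower, both shares below the 16.6% and 25.0% of all genes, with a median of -0.11. These counts depend on the eye pool: without the night eye library 3 were called higher and 14 lower, with a median of -1.19, and without the day eye library 12 were called higher and 0 lower. Of 13 myelin genes 1 (7.69%) was called each way, below the 16.6% and 25.0% of all genes. Their median difference was -0.52 in the day pair, 1.12 in the night pair and -0.49 without the night eye library. Of 12 erythrocyte genes 1 was called higher and 6 lower.

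**Figure D4:**
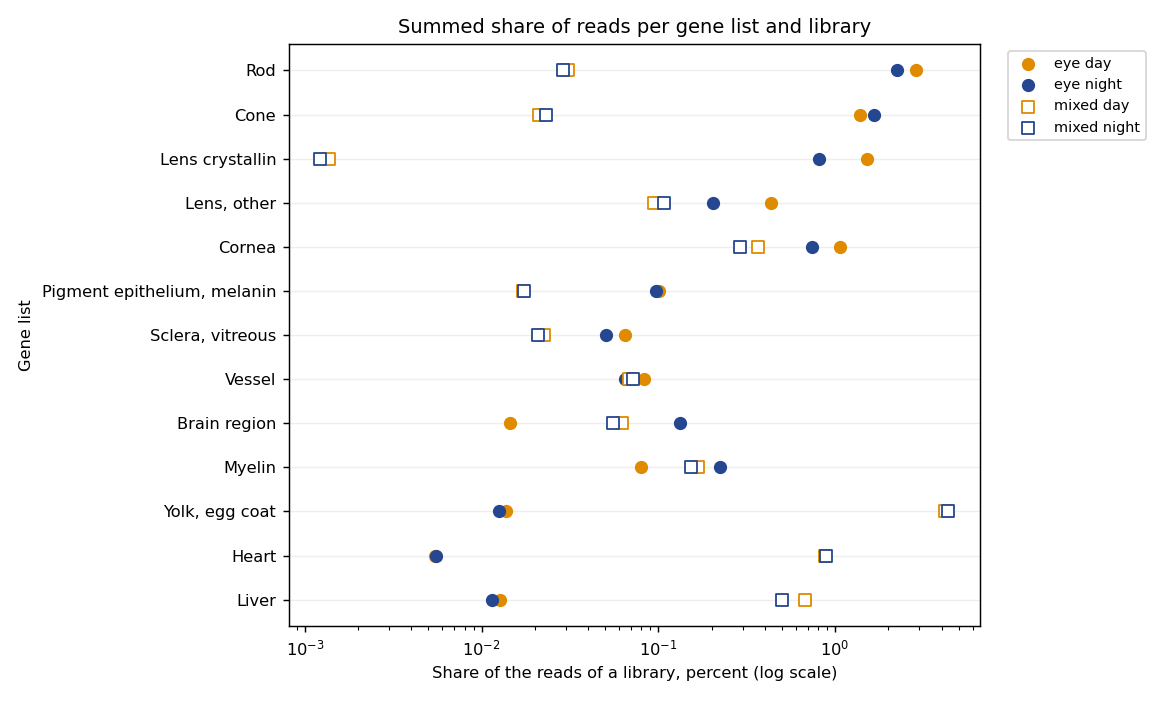
Percent of the reads of each library on a log scale (horizontal axis) held by the genes of 13 lists (rows), with filled circles for eye libraries and open squares for mixed libraries, orange for day and blue for night. Rod genes take 2.85% and 2.23% of eye reads, yolk and egg coat genes 4.19% and 4.38% of mixed reads, and brain region genes 0.0145% of the day eye against 0.132% of the night eye.

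The day and night pairs differed most for a small set of called genes. Of all called genes, 85 had pairs that differed by 2 or more on the log2 scale. NDRG1 (ENSDARG00000010420) read 621 FPKM in the day eye and 42.3 in the night eye, against 3.94 and 6.45. The glutamate transporter slc1a8b, keratocan and the phosphodiesterase pde5aa were likewise higher in the day eye. ANKRD33, a photoreceptor ankyrin repeat gene, read 12.5 FPKM in the day eye and 230 in the night eye, and the rod factor NR2E3, the green opsin opn1mw1 and RDH8 (ENSDARG00000099217) had the same balance. GUCA1A (ENSDARG00000101567), a guanylate cyclase activator, was the widest of the rod list, at 168 FPKM in the day eye and 2.56 in the night eye against 0.140 and 0.188 in the mixture (limma adjusted p = 0.0347), and its call was lost without either mixed library, with no filter on low values and with no time term. NDRG1 lost its call without either mixed library, NR2E3 and opn1mw1 without the night mixture, and pde5aa without the day mixture. All of the named genes read above the mixture in both pairs, and the change between eye pools has 1 library per time and was not tested.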

How the data were processed

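Poly(A) RNA libraries were aligned to danRer10; STAR 2.3.0e, FastQC, Subread, featureCounts and DESeq2 are named in the submitters' processing notes, with no further settings. The authors deposited FPKM per gene for 6 libraries, beside 3 tissue means that were not used. Of 32105 gene identifiers, 26269 matched a symbol. From the steps of the FPKM values, whole reads were recovered: 145979 of 146167 values above 0 (99.87%) were rebuilt within a relative error of 1e-06. The totals, 7949224 to 15950819 reads, set the precision.

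limma 3.58.1 in R 4.3.3 was fitted to log2(FPKM + 1) with tissue and time as terms, a mean trend and Benjamini-Hochberg adjustment over the 21325 genes with at least 1 FPKM in 2 of 6 libraries. A voom fit on the recovered reads called 4386 genes higher and 6252 lower. The fit was tested on simulated data. Replicate numbers stand for day and night, so the time term pairs eye and mixed libraries taken at the same time. No set was tested. Exact 95% intervals of ratios are Clopper-Pearson, and 3 reads were taken as the floor.

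The named genes were the list members with the largest differences or an opposite call, the largest rises and falls outside the lists, the most abundant genes of each tissue and the genes whose pairs differed most. Members and 33 lists were chosen with earlier results of these data known. Of 800 names in the lists, 140 matched no gene. The notes give no strand setting, so overlapping and antisense genes cannot be told apart. Sequences and promoter motifs were not analysed here, and a few list members are not reported by name.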

Additional observations from a re-analysis of the deposited data

Results flagged for a closer look

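The following genes had a day pair and a night pair of opposite sign, each at least 2-fold, with values as eye minus mixed on the log2(FPKM + 1) scale, and none of these differences between pairs was tested because each rests on 1 library per tissue and time. Of the brain region genes, epd gave -6.93 by day and 1.31 by night, cbln12 gave -4.72 and 1.52, oxt gave -3.38 and 3.09 and ZIC1 gave -3.22 and 1.34. ZIC2 (ENSDARG00000015554) gave -1.58 and 1.43, ZIC4 gave -1.33 and 1.07, and the EN2 identifiers ENSDARG00000026599 and ENSDARG00000038868 gave -1.05 and 1.14, and -1.03 and 1.01. Of the neuronal and glial genes, S100B gave -3.10 and 1.09, SLC17A6 (ENSDARG00000001127) gave -2.99 and 1.31, SLC1A3 (ENSDARG00000043148) gave -2.91 and 1.00 and nefla gave -1.62 and 1.53. ALDOC (ENSDARG00000057661) gave -2.82 and 1.65, and the photoreceptor gene eys gave -1.78 and 1.43. In each of these the eye read lower than the mixture by day and higher by night. DDC, which makes dopamine and serotonin, gave -4.61 and 1.87. There the mixture fell from 134 FPKM by day to 3.33 by night, while the eye rose by less than that.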

How the results depend on the processing

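The 16 alternatives changed pseudocount, filter, scaling, variance prior, model and libraries, and the counts of higher and lower genes stayed within 1.5 times of 3544 and 5332 in all of them. The share of higher among called genes moved with the scaling, as the report gives for quantile normalization, and median-ratio size factors gave 4128 higher and 4631 lower. Replicate numbers mark day and night, so the time term is the replicate block that pairs the libraries, and without it 3514 genes were called higher and 5311 lower. Leaving out 1 library gave 2767 to 4842 higher and 4852 to 5958 lower calls, and the lone library left in a tissue is then assumed to vary like the other groups. In those fits the ganglion list held 7 to 17 higher calls, with 17 without the day eye, and the vessel list 0 to 3, with 0 without the day mixture and 1 without the night mixture. The sclera and vitreous list held 7 higher calls with the filter at 5 FPKM. Without the day eye, genes with opposite pairs became called higher: oxt at 2.76, ALDOC (ENSDARG00000057661) at 1.70, cbln12 at 1.55, nefla at 1.43, ZIC2 (ENSDARG00000015554) at 1.42, ZIC1 at 1.37, epd at 1.27, eys at 1.25, SLC17A6 (ENSDARG00000001127) at 1.18, ZIC4 at 1.15 and S100B at 1.07. Without the night eye, 14 of 26 brain region genes were called lower against 1 with it, among them EN2 (ENSDARG00000026599), whose sign reversed, at -1.11. Without the day eye, 12 were called higher against 3. DDC became higher, at 1.76, without the day mixture. In these the 1 remaining pair sets the sign. All 32 crystallin calls were kept under every alternative. Under the alternatives in which each gene was tested, 30 of 30 cone, 26 of 28 rod, 21 of 21 bipolar, 9 of 13 Müller, 12 of 14 cornea and 0 of 2 vessel calls were kept, but the 5 FPKM filter left some of these genes out, foxq2 and gpr179 among them. Mixed libraries with 0 to 10 reads of a gene limit how precisely a ratio to the eye can be given.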
